A study of Mus musculus with 24 samples.

Results

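Cadherin and protocadherin genes were examined for windows of changed 5-hydroxymethylcytosine (5hmC), the oxidised form of 5-methylcytosine that Tet dioxygenases make. The deposited data are 2 lists of differentially 5-hydroxymethylated windows, one for windows with more 5hmC in Wt25 cells and one for windows with more 5hmC in AA10 cells. A window was a member if it lay wholly inside an autosomal protein-coding gene whose symbol is Cdh, Cdhr or Pcdh followed by a number, a letter or both, or if the deposited list gave it the Ensembl ID of such a gene. Of the 20726 windows, 125 were members, of which 74 lay inside 1 of 95 such genes and 51 carried only the ID. Wt25 and AA10 are both mouse embryonic stem cells (ESCs) on a mixed C57BL/6J-129V background in which *Tet1*, *Tet2* and *Tet3* are all knocked out, so that no Tet enzyme of their own is left in either line. Wt25 expresses wild-type human Tet3 from a lentivirus, and AA10 expresses the phosphor-mutant Tet3, in which alanine replaces a pair of serines of the catalytic domain that the kinase Cdk5 phosphorylates, while its other phosphorylation sites are left as they are. Each line is a single clone selected with puromycin and grown in 2i medium with LIF, so the difference between the Tet3 forms and the difference between the clones cannot be told apart. The 5hmC was measured by 5hmC-DIP, an immunoprecipitation of DNA fragments with an antibody, in 3 libraries of each line.

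Both lists come from 1 comparison of the 3 Wt25 libraries with the 3 AA10 libraries and hold positions without counts, fold changes or P-values. A window therefore has a direction but no size of change and no error, the depth of the libraries is unknown from these lists, and no comparison between lines could be tested over replicates. Shares are given with 95% Wilson intervals and densities with exact 95% Poisson intervals. Both cover counting error only, and neighbouring windows are not independent, so the intervals are too narrow where windows stand in groups.

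Cadherins are calcium-dependent adhesion proteins whose extracellular repeats bind cadherins of the neighbouring cell. Classical cadherins of type I and type II hold the actin skeleton through catenins bound to their cytoplasmic tails, and *Cdh1* (E-cadherin) is the cadherin that joins ESCs into colonies. Protocadherins carry similar repeats but different tails and are known mostly from neurons. In the clustered protocadherins, each alpha or gamma transcript joins 1 of many variable first exons to shared constant exons, while each beta gene is a single coding exon, and neurons choose among the promoters. Several of these promoters and exons are rich in CpG, the dinucleotide in which most 5hmC of the genome is found.

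Windows of the cadherins are shown as sequence because the lists were called from antibody enrichment, and the number and spacing of CpGs is the property of a window that can be read directly. Every CpG is in capitals, and all sequences are the plus strand of GRCm38, written 5′ to 3′. The first 4 are the windows of *Cdh4* with most CpGs outside the 3′ UTR, where a window not shown also held 3 CpGs. All 4 are higher in Wt25 and in intron 2 of the gene, at chr2:179469203-179469400, chr2:179698003-179698200, chr2:179545803-179546000 and chr2:179644003-179644200. The next are the windows of *Cdh16* (higher in AA10, chr8:104621403-104621600) and *Cdhr2* (higher in Wt25, chr13:54719403-54719600), which lay over a coding exon by 106 and 137 bases. The last are the window with most CpGs in *Cdh1* (higher in Wt25, intron 2, chr8:106641003-106641200) and in *Cdh3* (higher in AA10, intron 2, chr8:106512003-106512200), which were added after their values were seen.
Cdh4 at 26.9 kb: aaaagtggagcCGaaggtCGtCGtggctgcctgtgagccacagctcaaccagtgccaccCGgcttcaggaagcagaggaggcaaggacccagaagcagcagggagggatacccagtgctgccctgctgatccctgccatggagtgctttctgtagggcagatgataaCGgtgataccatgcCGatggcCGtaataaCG
Cdh4 at 255.7 kb: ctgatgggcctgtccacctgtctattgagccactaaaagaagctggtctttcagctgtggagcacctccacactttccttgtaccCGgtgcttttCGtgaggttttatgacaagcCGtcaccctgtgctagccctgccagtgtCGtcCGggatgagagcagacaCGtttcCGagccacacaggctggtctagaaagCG
Cdh4 at 103 kb: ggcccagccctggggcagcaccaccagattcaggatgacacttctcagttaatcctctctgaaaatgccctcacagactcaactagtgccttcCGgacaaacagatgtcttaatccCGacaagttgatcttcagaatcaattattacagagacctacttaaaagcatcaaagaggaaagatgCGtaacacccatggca
Cdh4 at 202 kb: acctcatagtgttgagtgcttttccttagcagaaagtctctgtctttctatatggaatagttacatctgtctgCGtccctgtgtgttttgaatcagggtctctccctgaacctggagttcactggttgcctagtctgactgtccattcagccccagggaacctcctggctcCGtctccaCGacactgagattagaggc
Cdh16 at 2.9 kb: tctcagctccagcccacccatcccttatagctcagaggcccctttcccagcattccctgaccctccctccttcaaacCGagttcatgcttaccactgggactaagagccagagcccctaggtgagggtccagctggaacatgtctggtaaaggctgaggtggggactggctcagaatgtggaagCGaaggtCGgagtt
Cdhr2 at 18.04 kb: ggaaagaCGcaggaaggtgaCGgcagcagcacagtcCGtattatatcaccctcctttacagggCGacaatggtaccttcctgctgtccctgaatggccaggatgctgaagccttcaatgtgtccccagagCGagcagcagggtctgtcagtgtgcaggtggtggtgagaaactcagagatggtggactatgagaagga
Cdh1 at 37.8 kb: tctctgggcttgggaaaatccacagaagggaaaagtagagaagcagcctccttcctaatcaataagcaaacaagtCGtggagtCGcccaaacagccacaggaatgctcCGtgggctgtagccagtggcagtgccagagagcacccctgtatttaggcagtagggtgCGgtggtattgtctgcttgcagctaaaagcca
Cdh3 at 1.21 kb: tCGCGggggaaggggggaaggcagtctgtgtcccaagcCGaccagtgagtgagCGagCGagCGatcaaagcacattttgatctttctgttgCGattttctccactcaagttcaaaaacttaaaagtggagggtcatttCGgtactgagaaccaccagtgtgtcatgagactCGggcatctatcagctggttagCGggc
The first 2 windows of *Cdh4* held 8 CpGs each and the other two held 3, and the distance in each name is that of the window's midpoint from the gene start. The window of *Cdh3* held 10 CpGs, the most of any window inside a cadherin gene, and lay close to the start of the gene. The window of *Cdhr2* held 5 CpGs, that of *Cdh1* 4 and that of *Cdh16* 3. All 32-base words of these 8 windows occurred once in the genome.

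The windows inside cadherin and protocadherin genes were mostly higher in Wt25. Of the 74 windows, 62 were higher in Wt25 and 12 in AA10, a Wt25 share of 83.8% (interval 73.8 to 90.5). Over all autosomal protein-coding genes, 6450 of 10557 windows were higher in Wt25, a share of 61.1% (60.2 to 62.0). Without *Cdh4*, which held 15 of the windows, the share of the other 59 was 79.7% (67.7 to 88.0). The 51 windows that carried only a member's ID were higher in Wt25 in 40 cases and in AA10 in 11, where 58.4% of all 20726 windows were higher in Wt25. No member window stood in a run of 20 or more windows of 1 direction with gaps of at most 10 kb, and no member gene lies on chromosome 6.

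Per length, the members as a pool differed from other genes mainly in the AA10 windows. The member genes, with overlapping spans counted once, covered 9.84 Mb and held 7.52 windows per Mb (5.91 to 9.44), against 10.6 per Mb (10.4 to 10.8) over all protein-coding genes. Wt25 windows had a density of 6.30 per Mb in the members and 6.50 per Mb in all genes. AA10 windows had a density of 1.22 per Mb in the members and 4.14 per Mb in all genes. As a pool, the members thus held Wt25 windows at about the density of other genes and AA10 windows at a lower density. These densities are not matched for gene length, and very long genes weigh most in the pool. The longest members, *Pcdh15*, *Cdh12* and *Cdh13* (1550, 1140 and 1041 kb), held 0, 0 and 2 AA10 windows. Whether other genes of such length hold as few was not computed. The Wt25 density was uneven, with 28.4 per Mb in type I cadherins and 24.5 in the clustered protocadherins. It was 2.95 in type II cadherins and 0.98 in the protocadherins outside the clusters. Without *Cdh4* the members held 5.01 Wt25 and 1.28 AA10 windows per Mb, and outside the clusters 5.26 and 1.18. No intervals were computed for densities by direction. Outside the dense runs, in which no member stood, all genes held 5.75 Wt25 and 3.62 AA10 windows per Mb, and the Wt25 share was 61.3% (60.3 to 62.3).

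Of the 95 genes, 31 held at least 1 window (32.6%), where 21.9% of the 20807 autosomal protein-coding genes did. A Wt25 window was present in 28 genes, against 13.8% of all genes, and an AA10 window in 9 genes (9.47%), against 10.3% of all genes. Windows of both directions were present in 6 genes, against 2.21% of all genes. In the protocadherin alpha cluster, where gene spans overlap, 9 of the genes were counted from windows in 2 places, so the 38 genes outside the clusters give the plainer count. There, 17 genes held a window, 9 of them only Wt25 windows, 3 only AA10 windows and 5 both. A Wt25 window was thus present in 14 of the 38 (36.8%, against 13.8% of all genes) and an AA10 window in 8 (21.1%, against 10.3%). Counted by gene, AA10 windows were present in a larger share of these genes than of all genes, although their density per Mb was lower. The shares by direction are not matched for gene length, so they do not show whether AA10 windows were rarer here. These genes are long, with a median span of 78.1 kb against 17.6 kb for all genes, and long genes hold windows more often. Under 50 kb, 5 of 14 genes held a window, against 14.3% of all genes of that length. Between 50 and 200 kb, 4 of 13 did, against 43.9% of all such genes. Over 200 kb, 8 of 11 did (72.7%), against 61.4% of all such genes. Set beside genes of like length, the share of these genes with a window was above the background in the short and long classes and below it in the middle class, each on few genes and not tested.

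**Figure D1:**
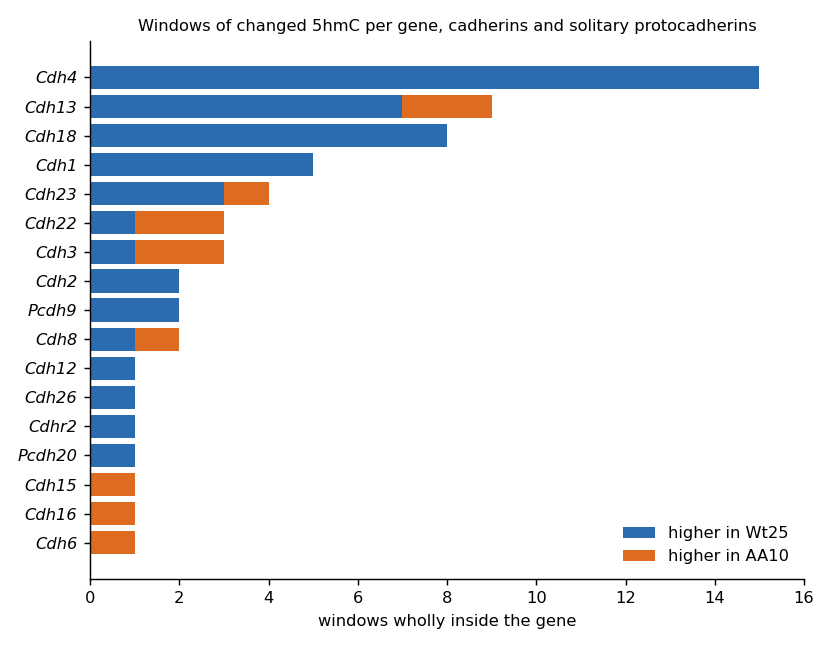
Windows wholly inside each cadherin and solitary protocadherin gene that held any, as horizontal bars, with windows higher in Wt25 in blue and higher in AA10 in orange. *Cdh4* held 15 windows, all higher in Wt25, and *Cdh13*, *Cdh18* and *Cdh1* followed with 9, 8 and 5.

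Among the groups outside the clusters, the type I classical cadherins held the most windows for their length. All 5 genes (*Cdh1*, *Cdh2*, *Cdh3*, *Cdh4* and *Cdh15*) held a window, 23 higher in Wt25 and 3 in AA10, which is 32.1 per Mb (20.97 to 47.03). The 13 type II cadherins, most of them known from the nervous system, held 15 windows in 5 genes (11 higher in Wt25, 4 in AA10), or 4.02 per Mb (2.25 to 6.63). The intervals of type I and type II did not overlap. Of the 26 type I windows, however, 15 were in *Cdh4*, 5 in *Cdh1* and 3 in *Cdh3*. *Cdh1* and *Cdh3* are neighbours, and the 1 Mb on each side of either gene itself held 32.5 windows per Mb. The type I density thus rests on few places, and whether it is a trait of the group was not tested. The group of *Cdh13*, *Cdh16*, *Cdh17*, *Cdh23* and *Cdh26* held 15 windows in 4 genes (11 and 4), or 9.53 per Mb. The 10 solitary protocadherins held 3 windows in 3.06 Mb, or 0.98 per Mb (0.20 to 2.86), below the 10.6 per Mb of all genes. These were 2 windows of *Pcdh9* and 1 of *Pcdh20*, all higher in Wt25.

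*Cdh4* (R-cadherin), a type I cadherin known from the retina, brain and kidney, lies at chr2:179442431-179899373 on the plus strand of GRCm38 and spans 457 kb. Its 15 windows were all higher in Wt25, with none higher in AA10, which allows a Wt25 share down to 79.6%. Their midpoints lay 26.9, 77.1, 77.3, 103, 104, 107, 121, 121, 159, 202, 220, 255.7, 255.9, 339 and 455 kb from the gene start. Joined where they were within 1 kb of each other, they made 11 regions, and neighbours were 0.2 to 116.8 kb apart with a median of 22.2 kb. The windows were thus spread over the gene and did not form 1 block.

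Intron 2 of *Cdh4*, which takes 73.4% of the gene, held 13 of the windows at 38.8 per Mb, intron 3 held 1 and the 3′ UTR held 1. None lay in intron 1, in introns 4 to 15 or in a coding exon. The windows held 1 to 8 CpGs, with a mean of 2.87 ± 2.17 (SD over the 15 windows), against 3.31 ± 2.51 over the 10557 windows in genes. CCGG, a motif of 4 bases that reads the same on both strands, occurred in 6 of the 15, against 21.8% of the windows in genes. In none of the 15 did marked repeats cover over 50% of the bases, against 18.5% of the windows in genes, and all of their 32-base words occurred once in the genome. The 2 most downstream windows carried the ID of *Taf4*, a neighbouring gene, in the deposited list, and the other 13 carried that of *Cdh4*.

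*Cdh4* held more windows than any other cadherin gene, and more per length than the other cadherins combined, at a density close to that of the rest of type I. It held 32.8 windows per Mb (18.4 to 54.1), and the other 27 cadherin genes together held 42 windows in 5.79 Mb, or 7.26 per Mb (5.23 to 9.81). Their Wt25 share was 73.8% (58.9 to 84.7), with 31 windows higher in Wt25 and 11 in AA10. The intervals of the densities did not overlap, while those of the shares did. *Cdh4* was singled out with results of these data known, so these intervals describe it and are not a test. The other 4 type I genes held 11 windows (8 higher in Wt25, 3 in AA10), or 31.2 per Mb (15.6 to 55.7), close to the density of *Cdh4*. *Cdh1*, *Cdh3*, *Cdh15* and *Cdh16* had higher densities than *Cdh4*, of which *Cdh15* and *Cdh16* held 1 window each, with intervals that overlapped that of *Cdh4*. Among all autosomal protein-coding genes, 0.317% held 15 or more windows. 59 genes held more than *Cdh4* and 6 held as many. Of 406 other genes within 1.5 times its span in either direction, 164 held no window, the median was 1, 5 held as many or more, and the highest count was 46.

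The windows of *Cdh4* were also denser than those around the gene. In the 1 Mb before the gene, 2 windows were higher in Wt25 and 1 in AA10, and in the 1 Mb after it 6 were higher in Wt25 and none in AA10. Together these flanks held 4.5 windows per Mb (2.06 to 8.54), an interval below that of the gene, which is again a description and not a test. The flanks and the chromosome also leaned to Wt25. On chromosome 2 as a whole, 73.9% of windows were higher in Wt25, and 75.9% of those inside genes were.

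**Figure D2:**
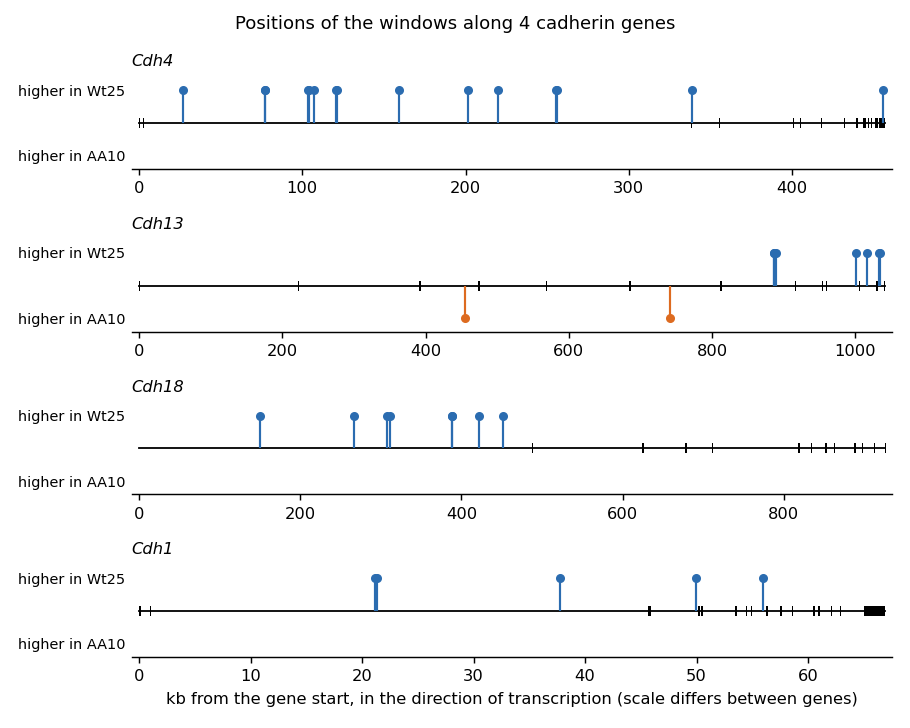
Positions of the windows (stems) along *Cdh4*, *Cdh13*, *Cdh18* and *Cdh1*, in kb from the gene start in the direction of transcription, with exons as black marks. Stems point up for windows higher in Wt25 and down for windows higher in AA10, and the windows of *Cdh13* higher in Wt25 stand at the end of the gene while those of *Cdh18* stand before its first marked exon.

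*Cdh1* (E-cadherin, 66.9 kb) held 5 windows, all higher in Wt25, at 21.2, 21.4, 37.8, 50.0 and 56.0 kb from its start. Of these, 3 were in intron 2, 1 in intron 3 and 1 in intron 8, and none was in the promoter. Its density was 74.7 per Mb (24.3 to 174.4), and its flanks of 1 Mb on each side were themselves dense, with 32.5 per Mb (25.1 to 41.4) and a Wt25 share of 76.9%. *Cdh3* (P-cadherin), the neighbouring gene, held 1 window higher in Wt25, in intron 12, and 2 higher in AA10, in intron 2 near the start and in the 3′ UTR. The neighbours *Cdh1* and *Cdh3* thus differed in direction, on counts of 5 and 3.

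Of the other type I cadherins, *Cdh2* (N-cadherin), which is known for the neural plate and mesoderm, held 2 windows inside the gene, both higher in Wt25. Both lay in intron 2, and 5 further windows outside the gene carried its ID, all higher in Wt25. *Cdh15* (M-cadherin of muscle) held 1 window, higher in AA10, in intron 7.

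Among type II cadherins, *Cdh18* held 8 of the 15 windows, all higher in Wt25. They lay 150 to 452 kb from the start of the 925 kb gene, all in intron 1 of the longest transcript of the full annotation. That intron spans 624 kb, and all 8 windows stood 35.5 to 337 kb upstream of the first transcript of the basic set. In the 1 Mb on each side of *Cdh18*, 1 window was higher in Wt25 and 5 in AA10, the opposite majority to that inside the gene. Of the 8 windows, 3 were over 50% marked repeats, and the share of 32-base words that occur once was as low as 12.6% for the window nearest the start. *Cdh22* held 1 window higher in Wt25 and 2 in AA10, and its flanks held 6 and 27, on a chromosome where most windows were higher in Wt25. *Cdh8* held 1 window of each direction, both in intron 1, at 12.97 kb (Wt25) and 2.37 kb (AA10) from the start. *Cdh6* held 1 window higher in AA10 and *Cdh12* 1 higher in Wt25. No window lay inside *Cdh5* (VE-cadherin of endothelium), *Cdh7*, *Cdh9*, *Cdh10*, *Cdh11*, *Cdh19*, *Cdh20* or *Cdh24*.

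*Cdh13* (T-cadherin), which has a lipid anchor in place of a cytoplasmic tail, held 7 windows higher in Wt25 and 2 higher in AA10 in 1041 kb. The AA10 windows lay 43.8% and 71.2% of the way along the gene. All 7 Wt25 windows lay between 85.1% and 99.4% of the way, in introns 7, 10, 11 and 13. In the flanks of *Cdh13*, 17 windows were higher in Wt25 and 15 in AA10. The density inside was 8.64 per Mb (3.95 to 16.4), and in the flanks 16 per Mb (10.9 to 22.6), with intervals that overlapped.

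*Cdh23*, which forms the tip links of hair cells of the inner ear, held 3 windows higher in Wt25 and 1 in AA10, 2 of them in intron 10 and 2 in intron 39. Its flanks held 23 and 3. The Wt25 window in intron 39 also lay inside *Vsir*, a gene nested in *Cdh23*. *Cdh16*, the cadherin of the kidney, held 1 window higher in AA10, over a coding exon. *Cdh26* held 1 window higher in Wt25, in intron 3, and *Cdh17* held none. Of the 5 cadherin-related genes, *Cdhr2*, a protein that links microvilli, held 1 window higher in Wt25 over a coding exon, and *Cdhr1*, *Cdhr3*, *Cdhr4* and *Cdhr5* held none.

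**Figure D3:**
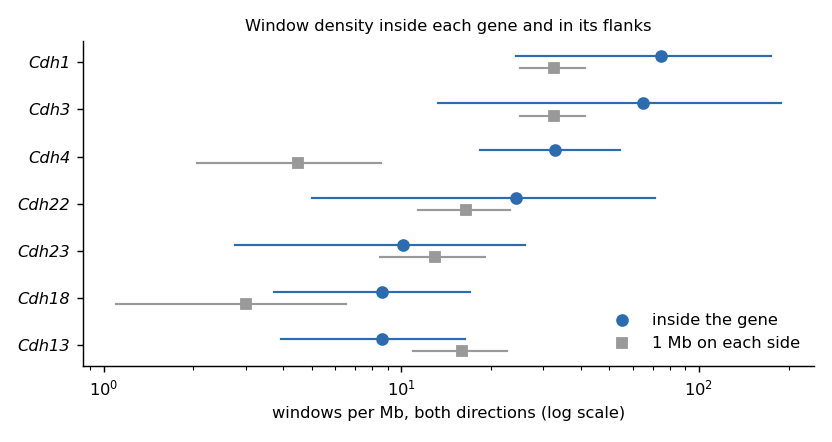
Windows per Mb inside each gene outside the clusters with at least 3 windows (blue circles) and in the 1 Mb on each side of it (grey squares), on a log axis, with lines for exact 95% Poisson intervals. *Cdh4* is the gene whose interval stands clear of that of its flanks, at 32.8 against 4.5 per Mb.

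Position along the gene was compared between the lists. In the genes over 50 kb outside the clusters, 15 Wt25 windows lay in the first, 16 in the middle and 15 in the last of 3 equal parts of the gene. These sums join genes with different patterns, and 30 of the 46 windows came from 3 genes. *Cdh4* had 8, 5 and 2 in the parts in that order, *Cdh18* had 3, 5 and 0, and *Cdh13* had 0, 0 and 7. Of the 7 AA10 windows in these genes, 1 lay in the first part, 1 in the middle and 5 in the last, too few to compare with the Wt25 windows. By feature, 56 of the 74 windows lay in introns (47 higher in Wt25, 9 in AA10), 12 in coding exons (10 and 2), 4 in 3′ UTRs (3 and 1) and 2 in 5′ UTRs (2 and 0). The windows counted as introns include the 8 of *Cdh18*, which lay upstream of its first basic transcript. Outside the clusters, only *Cdh16* and *Cdhr2* had a window in a coding exon. Shares by feature over all genes were not computed, so these counts have no background beside them. No window inside a member gene lay in a promoter of that gene, taken as 1 kb before to 100 bp after a start. For the outer start of a gene the definitions nearly fix this, as the midpoint of a window wholly inside lies about 100 bp or more past it. Only starts within the gene could have counted.

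*Pcdh9*, a protocadherin of the brain, held 2 windows higher in Wt25 in 877 kb, both over 50% marked repeats. *Pcdh20* held 1, higher in Wt25, in an intron 0.69 kb from the start. *Pcdh1*, *Pcdh7*, *Pcdh8*, *Pcdh10*, *Pcdh12*, *Pcdh15*, *Pcdh17* and *Pcdh18* held none. Among them are *Pcdh15*, an adhesion protein of hair cells that binds *Cdh23* in the tip link, with a span of 1550 kb, and *Pcdh7* with 415 kb.

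The clustered protocadherins lie side by side on chromosome 18, alpha first, then beta, then gamma, over 912 kb. Within this locus 25 windows were higher in Wt25 and 1 in AA10, or 28.5 per Mb, and they joined to 15 regions at 1 kb. Of the 26 windows, 14 lay inside a protocadherin gene, 13 of them higher in Wt25. The other 12 lay outside the protocadherin genes but inside the spans of other protein-coding genes (*Gm42416*, *Gm37013* and *Gm37388*). In the 1 Mb on each side of the locus, 12 windows were higher in Wt25 and 10 in AA10. On chromosome 18 as a whole, 41.5% of windows were higher in Wt25, and 63.4% outside dense runs. The Wt25 share of the locus was thus above that of its flanks and its chromosome, and this difference was not tested.

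The alpha cluster of 14 genes held 3 windows, all higher in Wt25 and all in variable first exons. One in *Pcdha1* held 19 CpGs, the most of any member window, and a neighbouring pair in *Pcdha9* held 6 and 15. The pair at *Pcdha9* lies in the spans of 9 alpha genes, *Pcdha1* to *Pcdha9*, because each span runs on to the shared constant exons. Only 25.7% of the 32-base words of the *Pcdha1* window occurred once in the genome, against 92.2% and 59.9% for the pair in *Pcdha9*.

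Most windows of the locus were in the beta cluster. Its 22 genes span 260 kb, which held 21 windows higher in Wt25 and 1 in AA10, or 84.8 per Mb in 12 regions. Inside beta genes there were 11 of these, with 1 in *Pcdhb12*, 3 in *Pcdhb15*, 3 in *Pcdhb16*, 1 in *Pcdhb17* and 3 in *Pcdhb19*. The window higher in AA10 was in the coding exon of *Pcdhb19*, beside 2 windows of that exon higher in Wt25. Windows in the promoters of members were all here and all higher in Wt25, with 1 at *Pcdhb1*, 2 at *Pcdhb16* and 1 at *Pcdhb17*. Upstream of *Pcdhb15* stood 6 windows that were all over 50% marked repeats, and downstream of *Pcdhb14* stood 2 that were not. In 10 of the 11 windows inside beta genes all 32-base words were unique, and the exception was *Pcdhb12* with 16.2%. The 21 gamma genes, over 180 kb, held no window of either direction, which allows up to 20.5 per Mb. This upper limit lies below the density of the beta cluster and above that of the alpha cluster, at 11.7 per Mb.

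**Figure D4:**
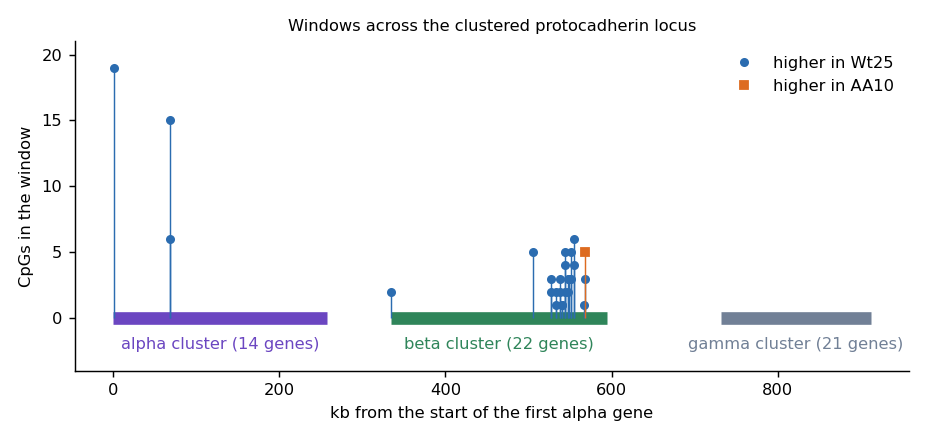
Windows across the clustered protocadherin locus by kb from the start of the first alpha gene, with the number of CpGs in each window as height and the spans of the 3 clusters as bars. The 25 windows higher in Wt25 and the 1 higher in AA10 stand in the alpha and beta clusters and just before the first beta gene, and the gamma cluster holds none.

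Of the 74 windows inside genes, 50 carried the ID of a cadherin or protocadherin in the deposited list, 20 carried that of another gene and 4 carried none. In turn, 51 windows carried the ID of a member but lay outside it, 33 of them over 100 kb away and 18 over 500 kb. The farthest was 1679 kb from its gene. Through such windows the list names 8 genes that held none, among them *Cdh11*, *Cdh9* and *Cdh20* with 5, 6 and 5 windows. The ID is that of the gene with the nearest start, so such a window need not lie in or beside the gene.

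The 74 windows held 3.55 ± 2.98 CpGs (SD over windows), and the windows in all genes 3.31 ± 2.51. The 62 higher in Wt25 held 3.53 and the 12 higher in AA10 3.67, a smaller difference than the spread in either. Marked repeats covered over 50% of the bases in 9.46% of the 74, against 18.5% of windows in genes. CCGG occurred in 28.4%, against 21.8%.

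Genes that work with cadherins were read from 2 lists. Of 22 other members of the superfamily (*Fat*, *Dchs*, *Celsr* and *Clstn* genes, desmosomal cadherins and *Ret*), 6 held a window (21.9% of all genes did), 3 only higher in Wt25, 2 only in AA10 and 1 both. These had 11 windows higher in Wt25 and 5 in AA10, a Wt25 share of 68.8% (44.4 to 85.8) beside the 61.1% of all genes, led by *Fat1* with 6 and 1. Of 11 catenins and other cytoplasmic partners, 5 held a window, with 10 windows higher in Wt25 and 35 in AA10, a Wt25 share of 22.2% (12.5 to 36.3). *Ctnna3* (alphaT-catenin), the longest of the 11, held 33 of the 35, of which 26 stood in a dense run. *Ctnnb1* (beta-catenin) and *Ctnna1*, which tie classical cadherins to actin, held none.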

How the data were processed

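The deposited lists, 1 for each direction, hold the chromosome, start and end of each window and, for most windows, an Ensembl gene ID, as the authors wrote them. Per the paper's methods, reads of the 5hmC-DIP libraries were aligned uniquely to GRCm38 with STAR, duplicates were removed with Picard, and 200 bp bins of the 3 libraries of each line were compared with MEDIPS. Bins were called on a minimum read count, a fold change between the lines and a P-value cut-off. No correction for the number of bins is described, so some of the windows may be calls made by chance. The paper tested several of the called regions, *Cdh4* among them, by 5hmC-DIP PCR or MspI digestion. Called bins that overlapped IgG-DIP peaks or held simple repeats are stated to have been removed, and the rest were annotated with HOMER. Of the 125 member windows, 6 still held a dinucleotide repeated 10 or more times in a row, 3 of them inside a gene (*Cdh8*, *Cdh18* and *Cdh23*). Tool versions are not given in the sources used here. The lists give no depth. The paper's supplement gives read numbers for each 5hmC-DIP library, lowest for the third Wt25 library, and these were not used here.

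Gene spans were taken from GENCODE vM21 and features from its basic transcripts, by the midpoint of each window. A window was counted in a gene when it lay wholly inside. Sequence and repeat marks came from GRCm38.p6. Copies of each 32-base word were counted on both strands. The assignment of windows to genes was tested on simulated data. Intervals came from scipy 1.17.1, sequences from pysam 0.24.0, figures from matplotlib 3.10.9 and tables from pandas 2.3.3 with numpy 2.4.6, under Python 3.11.15.

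The members, the gene groups and the lists were chosen with earlier results of these data known. Named were all members with 3 or more windows, all with a window in a promoter or coding exon, *Cdh1*, *Cdh2*, *Cdh4* and the clusters, the other members by counts, and those with none by name. Sequences were printed for the *Cdh4* windows with most CpGs outside the UTR and for coding exons outside the clusters, with *Cdh1* and *Cdh3* added. No test was made, as the lists pool the replicates. The other samples of the series (RNA-seq, ChIP-seq and inputs) were not analysed here.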

Additional observations from a re-analysis of the deposited data

How the results depend on the processing

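No paired analysis was possible because the lists come from 1 comparison over all libraries, and for the same reason no replicate could be left out. Over 29 recomputed values, 25 stayed within 1.5 times the reported count, within its interval or within 1 SD, and 4 did not. Another 6 could not change: no member stood in a dense run or on chromosome 6, and joining windows cannot alter which genes hold one. Counting only windows wholly inside a gene gave 74 of the 125 member windows. The 1 Mb on each side of *Cdh4* held 9 windows against the 15 inside it, which is a different quantity and not a recount of the gene. CpGs per member window fell from 3.23 to 1.66 when only the 100 bp around the midpoint were read. This value stayed within 1 SD (2.76) although the stretch was shorter, so it says little about robustness. The 25 windows in the spans of the 3 protocadherin clusters became 14 regions when joined at 1 kb, and 16 when windows with under 90% unique 32-base words were left out, an alternative chosen after seeing the data, as was leaving out windows with dinucleotide runs (119 of the 125 remained). The Wt25 share of the member windows ranged from 79.0% to 83.8% over all alternatives, around 81.6%. Depth limits these results, as the lists cannot show which windows missed the authors' threshold by little.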
